A study of Mus musculus with 3 samples.

Results

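Genes of the Rab, SNARE and vesicle sorting families were followed in islet cells of NOD/ShiLtJ mice with and without IRE1α. Members were chosen by name alone: any listed gene called Rab or Snap followed by a digit, or starting with Vps, Vamp, Stx, Snx or Syt. This gave 124 of the 8193 genes in the beta-cell table (44 Rab, 26 Vps, 21 Snx, 15 Stx, 9 Syt, 5 Vamp and 4 Snap names). In the other tables it gave 1 of 186 genes for alpha cells (Vamp2) and 1 of 231 for delta cells (Snx10). The name rule also takes in genes that belong to other families, namely Vps72 of a chromatin complex, Snap91 (the clathrin assembly protein AP180) and the antisense transcripts Rab10os and Rab26os. GENCODE M21 holds 190 coding genes with such names, and 122 of the 124 members are among them. The authors' beta-cell table also lists Rab5if and Vps35l, but under older names, so they were not members. All other genes of these names, among them Rab3a, Rab27a, Snap23 and Syt4, were not analysed here.

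The control was 1 mouse of genotype IRE1αfl/fl, and the other genotype, IRE1αβ-/-, was represented by 2 mice. The label IRE1αβ-/- is read here as a loss of IRE1α in beta cells. All 3 animals were 5 weeks old and had been injected with tamoxifen at 10 mg per ml on 5 days, 2 times in each 24 hours, to switch on the Cre recombinase. Neither the promoter driving Cre nor whether the floxed control carried Cre is known from the labels. Values are mean UMIs per cell, a UMI (unique molecular identifier) being a tag that marks 1 captured transcript, so the length of a transcript does not enter the level. The beta-cell columns stand for 829 control cells and 815 knockout cells, the latter pooled from both mice. With 1 control mouse and pooled knockouts, beta-cell values had no replicate check, and sizes are given in place of tests. In alpha and delta cells, where the knockout columns were separate, a limma fit is given beside the sizes. A bracketed range is the exact 95% interval of a ratio, knockout over control, from the split of its UMIs, and covers counting error only.

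Rab proteins are small GTPases that mark membranes and recruit the tethers and motors that move vesicles. SNARE proteins on the vesicle (VAMPs) and on the target membrane (syntaxins and SNAP proteins) zip together to fuse the membranes. Synaptotagmins tie that step to calcium in exocytosis. Vps proteins and sorting nexins build the coats and tethers that sort cargo at endosomes. In beta cells this machinery brings insulin granules to the plasma membrane and recycles their membrane.

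Only genes that the authors' deposited table gave as different were available (adjusted p up to 0.00998 in beta cells, from a test over cells). Such a list leaves out genes that did not differ by that test, and the rarer a gene, the further apart its groups must lie to be listed. The scale of the test is not known, and 18 listed members had ratios of UMIs per cell between 0.9 and 1.1. Counts therefore describe listed members and not the families. The listed UMIs came to 31552 per control and 24796 per knockout beta cell; without 7 hormone genes (Ins1, Ins2, Iapp, Gcg, Sst, Ppy and Pyy) they came to 9396 and 11167. Ern1, which encodes IRE1α, stood at 0.509 UMIs per control cell against 0.742 in the knockout (1.46 [1.29 to 1.66]). That ratio was near the median of all listed genes, 1.45, and a loss of the transcript was not seen in these counts. The position of the deleted exons is not known from the labels, and tags outside them would check nothing. Of 10 beta-cell markers, 6 were listed and all 6 were lower, at 22059 against 13364 UMIs per cell in sum. Markers of other cells were higher in 30 of 32 cases, near the 95% of all listed genes. Their summed levels, control then knockout, were 52.8 and 118.0 for alpha cells (5 of 8 markers listed), 39.99 and 66.2 for delta cells (4 of 6) and 21.7 and 107 for PP and epsilon cells (2 of 3). Duct markers summed to 43.7 and 78.9 (6 of 9), red-cell markers to 0.0639 and 22.6 (3 of 5) and immune markers to 0.641 and 0.564 (4 of 9). Endothelial markers summed to 0.270 and 0.521 (3 of 7), mesenchymal and Schwann markers to 0.0241 and 0.158 (4 of 9), and 1 of 10 acinar markers was listed at 0 and 0.114. Reg3b and Col1a1 were at 0 in control cells. What part these cells had in the values below was not tested.

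The vesicle genes of knockout beta cells were moderately higher as UMIs per cell, and their share of non-hormone transcripts was nearly equal. Together the 124 members held 83.3 UMIs per cell in the control and 99.5 in the knockout (1.19 [1.18 to 1.21]). As a share of the listed UMIs without hormones they made up 0.887% and 0.891%. With the hormones included, the shares were 0.264% and 0.401%. Of the 124, 117 were higher in the knockout (94.4%, against 95% of all listed genes). By a fold of at least 1.5, 49 members were higher (39.5%, against 45.7% of all listed genes) and 1 was lower (0.806%, against 2.47%). The median log2 ratio was 0.42 for members and 0.54 for all listed genes, and 53 members lay above that latter median. The share of members that was higher was thus near that of the whole table. For 2 members (1.61%, against 3.61% of all listed genes) the interval lay wholly below 1. Scaling moved the median log2 ratio of all listed genes from 0.54 to 0.89 (listed UMIs) or to 0.29 (listed UMIs without hormones). Under the latter, 97 members (78.2%) remained above a ratio of 1, against 82.1% of all listed genes.

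**Figure D1:**
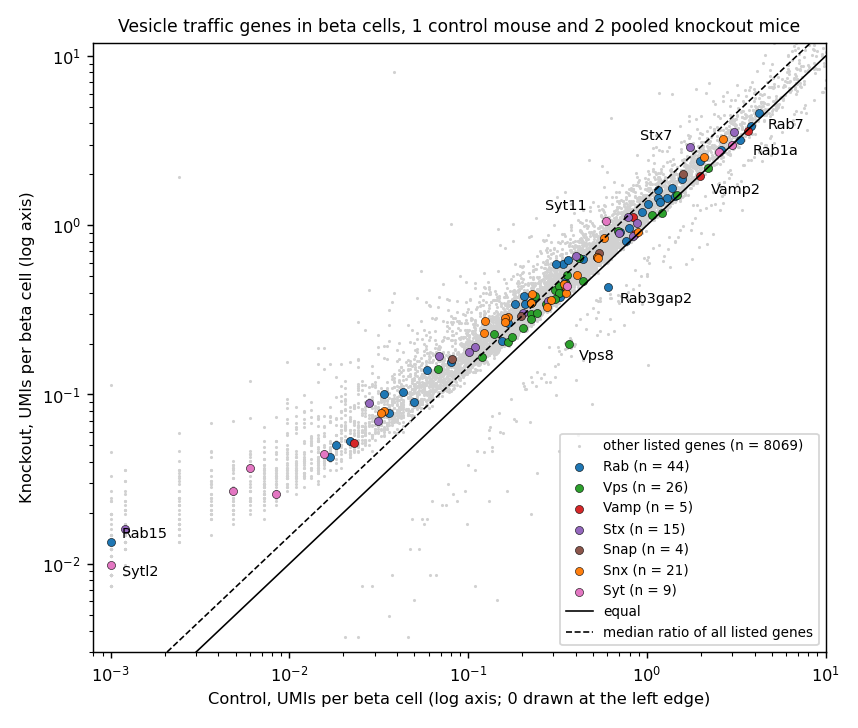
UMIs per beta cell in the control mouse (horizontal, log axis) and in the pooled knockout mice (vertical, log axis) for the 124 members, coloured by name prefix, and for the other listed genes in grey. Genes at 0 in the control are drawn at the left edge. Genes above 10 UMIs per control cell, or with knockout levels beyond either end of the vertical axis, are not drawn. Of the members, 53 lie above the dashed line, the median ratio of all listed genes, and 7 lie below the line of equality, with Vps8 and Rab3gap2 farthest from it.

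By family, syntaxin and SNAP names had the largest ratios of summed levels, and Rab names the largest difference in UMIs per cell. The 15 Stx names, 5 of them syntaxin binding proteins, summed to 9.23 UMIs per control cell against 12.4 in the knockout (1.34 [1.30 to 1.38]). Stx7 alone made up 1.75 and 2.88 of these sums. The 4 Snap names went from 2.40 to 3.16 (1.32 [1.24 to 1.40]) and the 21 sorting nexins from 10.5 to 13.5 (1.28 [1.25 to 1.32]). Rab names held the most transcripts, 35.2 against 41.5 (1.18 [1.16 to 1.20]), followed by Vps names with 12.1 against 13.98 (1.16 [1.12 to 1.19]). Synaptotagmin names summed to 6.49 and 7.35 (1.13 [1.09 to 1.18]). The 5 VAMPs were at 7.39 and 7.63, with an interval that covers 1 (1.03 [0.996 to 1.07]). As shares of the listed UMIs without hormones, Stx (0.0983% and 0.111%), Snap (0.0255% and 0.0283%) and Snx names (0.112% and 0.121%) were still higher in the knockout. On that scale Rab (0.374% and 0.371%), Vps (0.129% and 0.125%), Syt (0.0690% and 0.0658%) and Vamp names (0.0787% and 0.0683%) were lower, so the direction of these 4 families depends on the scaling.

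**Figure D2:**
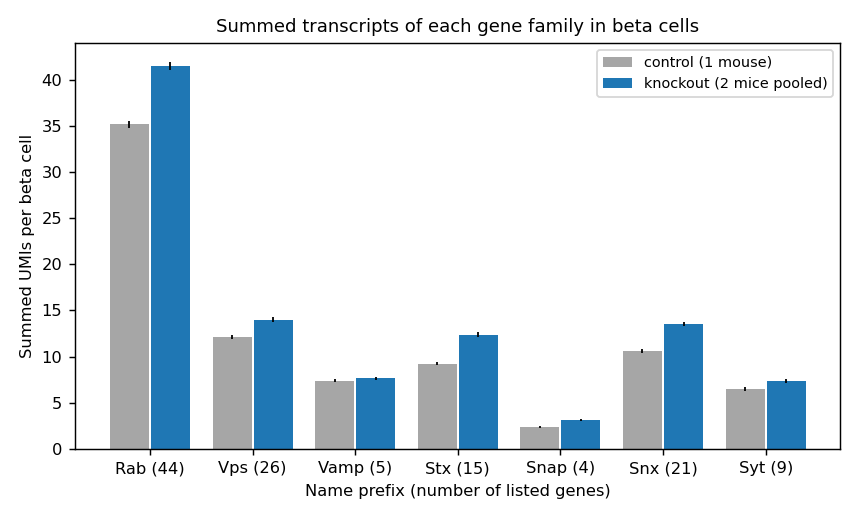
Summed UMIs per beta cell of the listed genes of each name prefix, with the number of genes in brackets; grey bars are the control mouse, blue bars the pooled knockout mice, and error bars are exact 95% Poisson intervals for counting error. The Rab bars are 35.2 and 41.5, and the VAMP bars, 7.39 and 7.63, are the closest pair.

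Among transcripts for the insulin granule fusion step, the VAMPs Vamp2 and Vamp8 were close to control in UMIs per cell. Vamp2 (ENSMUSG00000020894, mm10 chromosome 11, 69088490 to 69092384), the VAMP of insulin granules, had 1.99 UMIs per control cell and 1.95 in the knockout (0.978 [0.913 to 1.05]). Vamp8, a VAMP of endosomes and secretory granules, had 3.68 and 3.62 (0.982 [0.933 to 1.03]). Both intervals cover 1, and after scaling Vamp2 was above the control (1.24, to the listed UMIs) or below it (0.823, without hormones). Snap25 (ENSMUSG00000027273, chromosome 2, 136713453 to 136782428), the plasma membrane partner of Vamp2, had 1.59 and 2.01 UMIs per cell (1.27 [1.18 to 1.37]). Stx1a (ENSMUSG00000007207, chromosome 5, 135023482 to 135051100), the syntaxin of that complex, was rarer, with 0.204 and 0.302 (1.48 [1.21 to 1.81]). So Snap25 and Stx1a were higher per cell, while Vamp2 itself lay within counting error of the control. All of these ratios except that of Stx1a are below the median ratio of all listed genes, 1.45. Against listed genes of similar control level, Snap25 was above the median (1.17, from 1 UMI upwards), and Vamp2 and Vamp8 were below it. Stx1a was slightly below the median of its range (1.504, from 0.1 to 0.3 UMIs).

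Other SNAREs, of the plasma membrane and of other membranes, also had higher means per cell, though the interval of Vamp4 covers 1. Stx4a, a syntaxin of the plasma membrane, had 0.785 and 1.11 UMIs per cell (1.42 [1.28 to 1.57]), and Stx3 had 0.885 and 1.03 (1.16 [1.05 to 1.29]). Vamp3, a VAMP of recycling endosomes, went from 0.840 to 1.13 (1.34 [1.21 to 1.48]), and Vamp4, of the trans-Golgi network, from 0.854 to 0.885 (1.04 [0.933 to 1.15]). Snap47 was at 0.537 and 0.690 (1.28 [1.13 to 1.46]) and Snap29 at 0.197 and 0.291 (1.48 [1.21 to 1.82]). After scaling without hormones, Stx3 (0.978) and Vamp4 (0.872) were below the control and the others named here above it.

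Endosomal syntaxins had the largest ratios among the SNAREs that reached the median level of the table. Stx7 (ENSMUSG00000019998, chromosome 10, 24149302 to 24190222), a syntaxin of late endosomes, was at 1.75 UMIs per control cell against 2.88 in the knockout (1.65 [1.55 to 1.76]). It was the 1 member of 26 with at least 1 UMI per control cell that passed the fold of 1.5 (3.85%, against 12.3% of all listed genes at that level). It also has the smallest adjusted p among members in the authors' deposited table, 5.28e-49. Stx6, of the trans-Golgi network and endosomes, was at 0.402 and 0.663 (1.65 [1.44 to 1.90]), and Stx17, which acts in the fusion of autophagosomes with lysosomes, at 0.110 and 0.190 (1.73 [1.33 to 2.27]). Stx16 of the trans-Golgi network was at 0.694 and 0.901 (1.30 [1.16 to 1.45]), and Stx5a, the syntaxin of ER to Golgi transport, at 0.832 and 0.867 (1.04 [0.937 to 1.16]). The 5 syntaxins of the ER, Golgi and endosomes thus ranged in ratio from 1.04 to 1.73.

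Syt13 and Syt7, the most abundant synaptotagmins, were near the control in UMIs per cell. Syt13 had 2.99 and 2.999 UMIs per cell (1.00 [0.949 to 1.06]) and Syt7 2.52 and 2.71 (1.08 [1.01 to 1.14]). Syt7 is a calcium sensor of insulin exocytosis. After scaling to the listed UMIs, Syt13 and Syt7 were above the control (1.28 and 1.37), and without hormones below it (0.845 and 0.906). Syt11 (ENSMUSG00000068923, chromosome 3, 88744700 to 88775164), which does not bind calcium, went from 0.591 to 1.06 (1.79 [1.60 to 2.01]). Syt14 was at 0.358 and 0.440 (1.23 [1.05 to 1.44]). The remaining 5 Syt names were under 0.05 UMIs per cell in both groups. Among them, Syt9, another calcium sensor of insulin granules, had 13 UMIs in control and 36 in knockout cells (2.82 [1.46 to 5.79]), and Syt17 had 5 and 30 (6.10 [2.34 to 20.1]). Sytl2, a Rab27 effector, had no UMI in control cells and 8 in knockout cells. Its level was 2.71 times that of 3 UMIs over the control cells, the limit set for a count of 0, and the lower end of the exact interval of the ratio was 1.74.

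Several syntaxin binders and 1 further syntaxin were rare. Stxbp5l, a tomosyn that competes with VAMPs for syntaxin, had 0.0277 and 0.0896 UMIs per cell (3.23 [2.00 to 5.41]), while its relative Stxbp5 had 0.281 and 0.358 (1.27 [1.07 to 1.52]). Stxbp6, which encodes amisyn, was at 0.0688 and 0.168 (2.44 [1.78 to 3.39]). Stx11, a syntaxin known from immune cells, was at 0.101 and 0.178 (1.76 [1.33 to 2.33]).

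**Figure D3:**
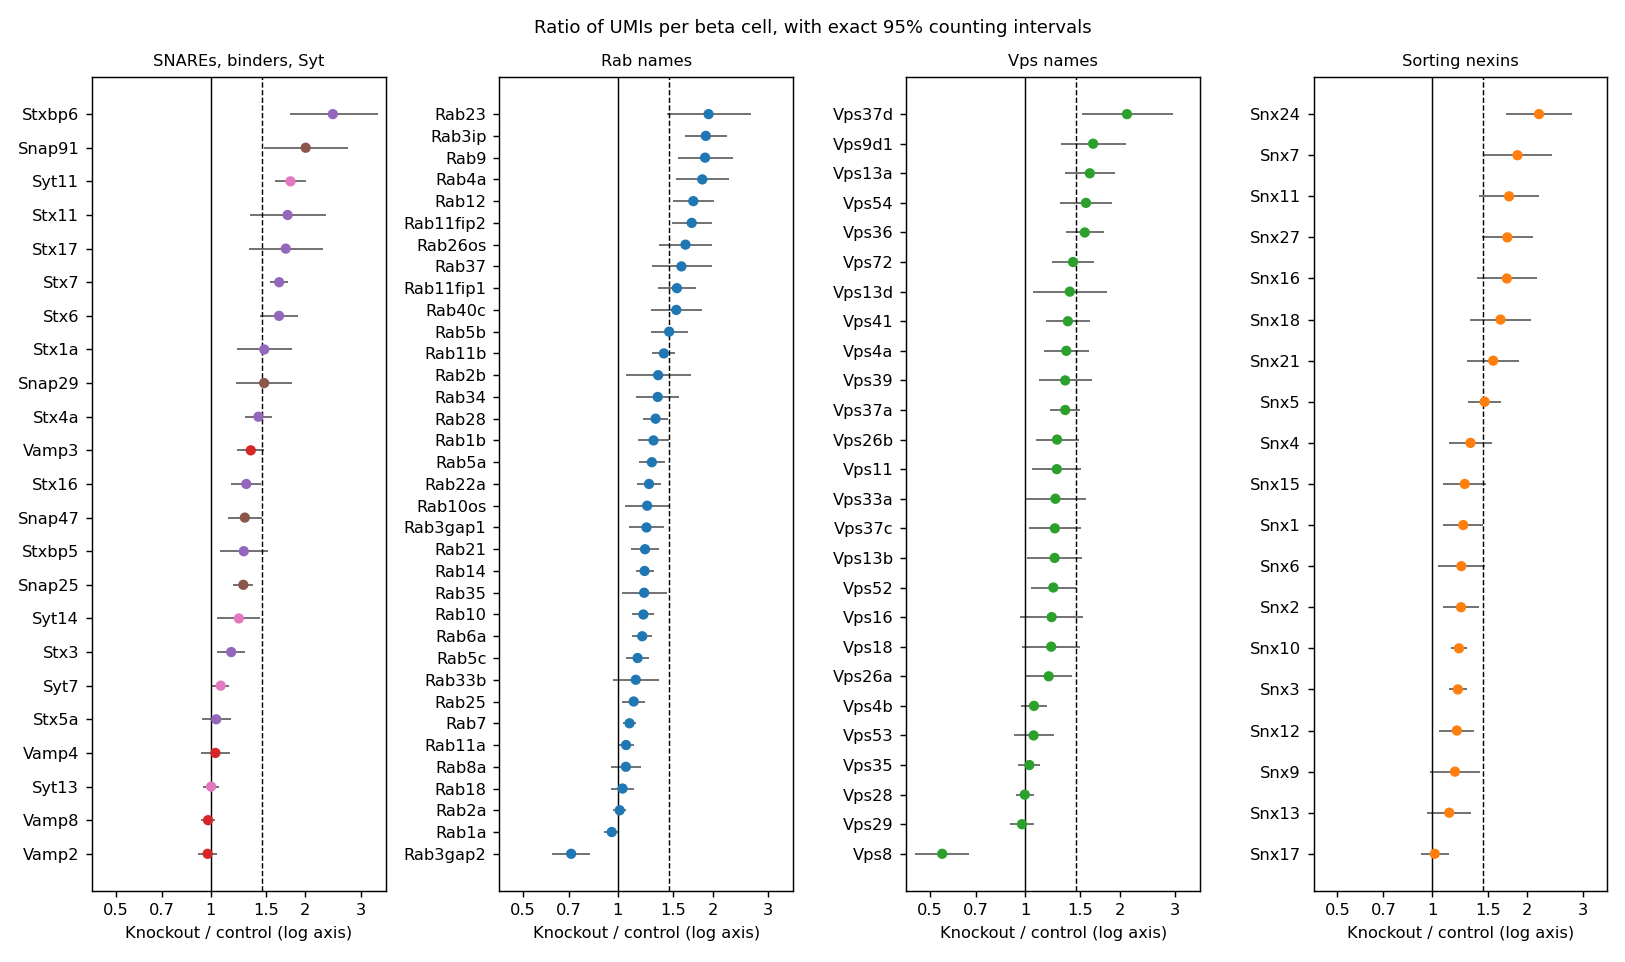
Ratio of UMIs per beta cell, knockout over control (log axis), for 103 members with at least 50 UMIs in control cells. These are 23 Vamp, Stx, Snap and Syt names (SNAREs, their binders, synaptotagmins and Snap91), 35 Rab, 26 Vps and 19 Snx names. Points are ratios, bars are exact 95% counting intervals, the solid line is 1 and the dashed line is the median ratio of all listed genes. The intervals of Rab3gap2 (0.711) and Vps8 (0.546) lie wholly below 1.

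Among the Rab GTPases, those of the ER and Golgi were nearest to the control. Rab2a, which acts between the ER and the Golgi and in granule formation, had 3.80 UMIs per control cell and 3.86 in the knockout (1.01 [0.964 to 1.07]). Rab1a, of ER to Golgi transport, had 3.33 and 3.19 (0.956 [0.906 to 1.01]), and its paralogue Rab1b had 0.703 and 0.913 (1.30 [1.16 to 1.45]). Rab6a, of transport at the Golgi, was at 1.56 and 1.87 (1.20 [1.11 to 1.29]), and Rab18, of the ER and lipid droplets, at 1.43 and 1.48 (1.04 [0.955 to 1.12]). The 7 Rabs of this class summed to 11.3 and 11.9 UMIs per cell (1.05 [1.02 to 1.08]). None of them passed the fold of 1.5, against 45.7% of all listed genes. Rab2a, Rab1a, Rab6a and Rab18 had over 1 UMI per control cell, where 12.3% of all listed genes passed it. That share was 24.3% from 0.3 to 1 and 50.9% from 0.1 to 0.3, where the others lay. After scaling without hormones, 3 of 7 (42.9%, against 82.1% of listed genes of any level) stayed above the control.

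All 12 Rabs classed with early and recycling endosomes were higher, with intervals above 1, as for 87.0% of all listed genes. Rab12 and Rab15, given below, were not in this class. After scaling without hormones, 9 of the 12 stayed higher (75%, against 82.1% of all listed genes). Rab14, of endosomes and the trans-Golgi network, had 1.98 and 2.41 UMIs per cell (1.22 [1.14 to 1.30]). The Rab5 paralogues, which direct fusion of early endosomes, were at 1.19 and 1.37 for Rab5c (1.16), 0.934 and 1.20 for Rab5a (1.28) and 0.437 and 0.636 for Rab5b (1.46). Rab11a, of recycling endosomes, was at 2.60 and 2.77 (1.06), and Rab11b at 1.15 and 1.61 (1.40 [1.29 to 1.52]). Rab4a, which acts in fast recycling, was at 0.205 and 0.380 (1.85 [1.53 to 2.25]). In the Rab1, Rab2, Rab5 and Rab11 sets, the most abundant paralogue had the smallest ratio and the least abundant the largest. The same held for Vps4, but not for Vps26, where the rarer Vps26a had the smaller ratio, nor for Vps37, where Vps37c, the middle one in level, had the smallest. Rarer genes also had larger ratios across all listed genes, as given below. What part similar sequences had in the ratios of these paralogues was not tested.

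Rab7 (ENSMUSG00000079477, chromosome 6, 87999106 to 88045270), the Rab of late endosomes and lysosomes, was the most abundant member. It had 4.24 UMIs per control cell and 4.61 in the knockout (1.09 [1.04 to 1.14]). Rab9, which acts in return from late endosomes to the Golgi, was at 0.182 and 0.345 (1.89 [1.55 to 2.32]). Rab32, of lysosome-related organelles, was at 0.0217 and 0.0528 (2.43 [1.37 to 4.48]).

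Of the Rabs at secretory vesicles and the plasma membrane, the exocytic ones that were listed were rare. Rab3c, of regulated secretion, had 0.0338 and 0.101 UMIs per cell (2.98 [1.92 to 4.75]), and Rab37, of secretory granules, 0.166 and 0.265 (1.59 [1.28 to 1.99]). The more abundant Rab10 and Rab8a, which act in transport to the cell surface, were at 1.38 and 1.66 (1.21 [1.11 to 1.31]) and at 0.762 and 0.809 (1.06 [0.9495 to 1.18]). Rab15, of recycling endosomes, had no UMI in control cells and 11 in knockout cells, a level 3.73 times that of 3 UMIs in the control, with a lower end of the exact interval of the ratio at 2.55. Among Rab effectors and activators, Rab3ip, an exchange factor for Rab8, was at 0.309 and 0.588 (1.90 [1.63 to 2.22]), and Rab11fip2, a Rab11 effector, at 0.363 and 0.623 (1.72 [1.49 to 1.99]). Rab12, an endosomal Rab, was at 0.338 and 0.587 (1.74 [1.495 to 2.02]). These last 3 were the highest ratios among Rab names that reached the table's median level.

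Lower levels were found in 7 members, and for 5 of them, Rab1a, Vamp2, Vamp8, Vps28 and Vps29, the interval covered 1. Vps8 (ENSMUSG00000033653, chromosome 16, 21423118 to 21644680), the CORVET subunit that binds Rab5 on early endosomes, had 0.364 UMIs per control cell and 0.199 in the knockout (0.546 [0.448 to 0.663]), from 302 and 162 UMIs. It was the 1 member lower by the fold of 1.5, and it was also below 1 after scaling to the listed total (0.694). Rab3gap2 (ENSMUSG00000039318, chromosome 1, 185204117 to 185286759), the noncatalytic subunit of the complex that acts on Rab3 and Rab18, had 0.609 and 0.433 (0.711 [0.619 to 0.816], and 0.905 after scaling to the listed total). Its catalytic partner Rab3gap1 was at 0.528 and 0.652 (1.23 [1.08 to 1.40]), so that Rab3gap2 was the more abundant of the pair in control cells and the less abundant in knockout cells.

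Besides Vps8, the tethering complexes HOPS and CORVET were slightly higher. Vps41 and Vps39, of HOPS, which docks late endosomes at lysosomes, were at 0.322 and 0.440 (1.37 [1.16 to 1.61]) and at 0.223 and 0.299 (1.34 [1.10 to 1.63]). The core subunits Vps11, Vps16, Vps18 and Vps33a had ratios from 1.21 to 1.26, of which that of Vps11 had an interval above 1. The 6 subunits above 1 (of 7, against 95% of all listed genes) all had ratios below the table's median of 1.45. For Vps16, Vps18 and Vps33a the interval covered 1. Against listed genes of similar control level, Vps41 was above the median (1.32, from 0.3 to 1 UMIs). The others were below that of their range (1.504, from 0.1 to 0.3). Vps8 belongs to CORVET and not to HOPS.

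Retromer, the coat that returns cargo from endosomes, was near control. Vps35, its scaffold, had 1.47 and 1.51 UMIs per cell (1.03 [0.953 to 1.12]), and Vps29 had 1.21 and 1.18 (0.978 [0.894 to 1.07]). Vps26a and Vps26b were at 0.308 and 0.366, and at 0.353 and 0.447 (1.19 and 1.26). The 4 subunits summed to 3.34 and 3.51 (1.05 [0.997 to 1.11]), and to 0.0355% and 0.0314% of the listed UMIs without hormones. Of the sorting nexins that work with retromer, Snx5 was at 0.573 and 0.840 (1.47 [1.30 to 1.65]), Snx1 at 0.404 and 0.507 (1.25 [1.08 to 1.45]), Snx2 at 0.526 and 0.649 (1.23 [1.09 to 1.40]) and Snx6 at 0.291 and 0.360 (1.24 [1.04 to 1.47]). Snx27, which links retromer to cargo at the cell surface, was at 0.227 and 0.393 (1.73 [1.44 to 2.08]).

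ESCRT subunits, which bud vesicles into multivesicular endosomes, ranged more widely. Vps28, the most abundant, had 2.18 UMIs per cell in both groups (0.998 [0.934 to 1.07]), and Vps36 of ESCRT-II had 0.416 and 0.644 (1.55 [1.35 to 1.78]). The ATPases that disassemble ESCRT, Vps4b and Vps4a, were at 1.07 and 1.14 (1.07 [0.973 to 1.17]) and at 0.308 and 0.416 (1.35 [1.15 to 1.60]). Vps13a, a lipid transfer protein, was at 0.238 and 0.382 (1.61 [1.34 to 1.93]). Vps72, which is no sorting protein, was at 0.356 and 0.506 (1.42 [1.22 to 1.66]).

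Among the other sorting nexins, Snx10 (ENSMUSG00000038301, chromosome 6, 51523901 to 51590679), which acts in endosome and lysosome formation, was the most abundant, with 2.66 and 3.24 UMIs per cell (1.22 [1.15 to 1.29]). Snx3, a retromer adaptor, had 2.09 and 2.52 (1.21 [1.13 to 1.29]), and Snx12, its close relative, 0.533 and 0.638 (1.20 [1.05 to 1.36]). Snx17, an adaptor for recycling receptors, had 0.893 and 0.909 (1.02 [0.919 to 1.13]). Snx4 and Snx15 were at 0.341 and 0.452 (1.32 [1.13 to 1.55]) and at 0.347 and 0.440 (1.27 [1.08 to 1.49]). All 21 sorting nexins had more UMIs per knockout cell (against 95% of all listed genes), 9 of them (42.9%, against 45.7%) passed the fold of 1.5, and 18 (85.7%, against 82.1%) stayed higher after scaling without hormones. These shares are near those of the table.

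The ratio of a member went with its level, as for all listed genes. The 24 members under 0.1 UMIs per control cell had a median ratio of 2.44, against 2.37 for the 1868 listed genes in that range. From 0.1 to 0.3 UMIs the medians were 1.56 for 31 members and 1.504 for 2346 genes. From 0.3 to 1 they were 1.27 for 43 members and 1.32 for 2541 genes, and from 1 upwards 1.11 for 26 members and 1.17 for 1438 genes. Across genes, which share libraries and are not replicates, Spearman's rho between mean level and log2 ratio was -0.76 for the members and -0.63 for all listed genes. Level and ratio share the same 2 values, and the choice of genes by the authors' test bears on this relation. A ratio between 0.9 and 1.1 was found for 18 members (14.5%, against 7.08% of all listed genes). For 21 members (16.9%, against 9.40%) the interval covered 1.

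**Figure D4:**
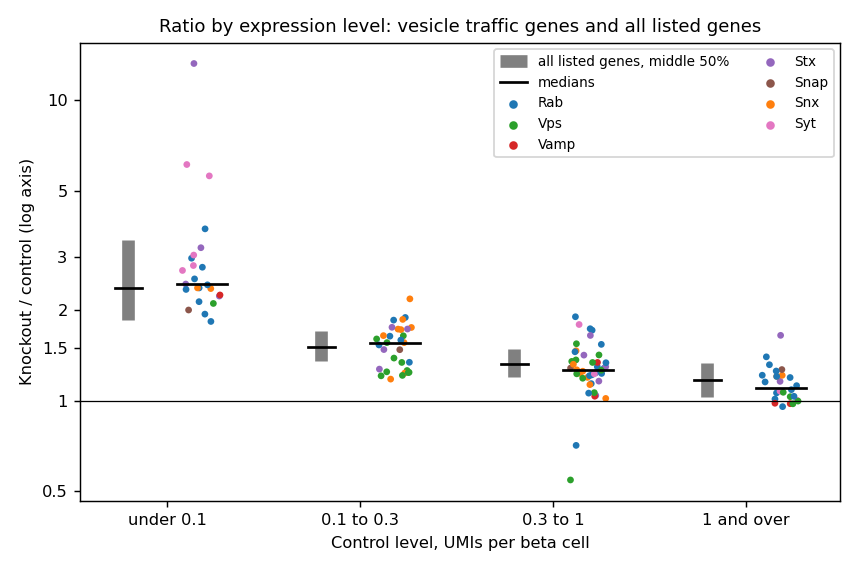
Ratio of UMIs per beta cell, knockout over control (log axis), by level in control cells, for members (points, coloured by name prefix) beside the middle 50% of all listed genes (grey bars); black lines are medians. The medians of members go from 2.44 in the lowest range to 1.11 in the highest, beside 2.37 and 1.17 for all listed genes.

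Promoters of the members were searched for 4 short motifs tied to the stress response and to secretion. RefSeq promoters (GRCm38.p6, from 250 bases before to 50 bases after a start) were found for 95 of the 124 members, 116 promoters in all, and both strands were searched. GCCACGT, part of an element bound by XBP1, was in 2.59% of them, against 2.58% of all 32851 promoters and 3.46% of the 8239 of genes listed in beta cells. CCACG, which GCCACGT contains, was in 41.4%, against 32.8% and 47.4%. TGACG, a partial site of the cyclic AMP response element, was in 40.5%, against 20.8% and 31.1%. CACGTG, the core of the element bound by the lysosomal regulator TFEB, was in 12.1%, against 7.15% and 9.82%. Such matches are letters in a window and not sites of binding.

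The stretches printed here are those of Snx5, the 1 member with GCCACGT before a start (Rab5a and Stx5a hold it after theirs), of Vps8 and Rab3gap2, the members whose intervals lay below 1, and of 4 members with higher ratios that carry the same TGACG. Each line holds 60 bases on the strand of the gene, with the motif, or its reverse complement in Snx5 and Rab11fip2, in capitals. The stretches are chr2:144270588-144270647 (Snx5), chr16:21423051-21423110 (Vps8), chr1:185203918-185203977 (Rab3gap2), chr1:155158538-155158597 (Stx6), chr5:135023311-135023370 (Stx1a), chr19:59943690-59943749 (Rab11fip2) and chr17:66519814-66519873 (Rab12). Snx5, Rab11fip2 and Rab12 lie on the minus strand and the others on the plus strand.
Snx5: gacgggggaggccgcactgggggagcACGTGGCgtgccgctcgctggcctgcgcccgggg
Vps8: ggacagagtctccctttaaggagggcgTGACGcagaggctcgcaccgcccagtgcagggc
Rab3gap2: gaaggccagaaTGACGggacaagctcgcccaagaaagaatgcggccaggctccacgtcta
Stx6: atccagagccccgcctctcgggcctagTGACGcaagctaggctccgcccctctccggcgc
Stx1a: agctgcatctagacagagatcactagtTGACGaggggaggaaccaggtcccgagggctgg
Rab11fip2: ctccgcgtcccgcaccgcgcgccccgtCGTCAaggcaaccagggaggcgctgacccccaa
Rab12: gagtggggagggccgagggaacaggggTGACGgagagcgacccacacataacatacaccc
The motif TGACG thus stood before the start of the 2 members with lower levels as well as of members with ratios of 1.48 (Stx1a), 1.65 (Stx6), 1.72 (Rab11fip2) and 1.74 (Rab12). It also stood before the start of members near the control, such as Rab7 (1.09), Rab8a (1.06) and Vps29 (0.978). Snx5, with the XBP1 letters 49 bases before its start, had a ratio of 1.47.

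Genes of the same pathway with other names had a median ratio close to that of the members, and fewer of them passed the fold. Of 189 genes in 6 lists, 108 were listed in beta cells; 25 of them were higher and 2 lower by the fold of 1.5 (against 49 and 1 of the 124 members, and 45.7% and 2.47% of all listed genes), at a median log2 ratio of 0.37 against 0.42 for the members. With genes of at least 0.1 UMIs per cell, 20 pathway genes and 29 members remained higher by the fold. Under 0.1 UMIs per control cell, 93.9% of all listed genes were higher by it, so these counts depend on level. Of the SNARE cofactors and other SNAREs, 0 of 13 passed 1.5 upwards. Nsf, the ATPase that takes SNARE complexes apart, had 0.382 and 0.488 UMIs per cell (1.28 [1.10 to 1.48]). Bet1, a SNARE of ER to Golgi transport, went from 1.53 to 0.933 (0.611 [0.558 to 0.669]), while its partners Sec22b (0.934 [0.863 to 1.01]) and Gosr2 (0.980 [0.906 to 1.06]) had intervals that cover 1. Docking and priming had 6 listed genes, 4 of them higher by the fold and 1 lower. The lower one had a ratio of 0.280, the smallest of the 108 genes. Cplx2, a complexin that clamps and promotes SNARE fusion, went from 0.884 to 1.74 (1.96 [1.80 to 2.15]), and Rph3al, an effector of Rab3 and Rab27, from 1.12 to 1.75 (1.57 [1.44 to 1.71]).

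Rab regulators outside the name rule were higher by the fold in 11 of 33 cases (against 45.7% of all listed genes, as for the counts that follow), among them Rabggtb, a subunit of the enzyme that attaches lipid to Rabs (0.691 and 1.08; 1.56 [1.40 to 1.74]). Madd, an exchange factor for Rab3, was at 1.53 and 1.51 (0.984 [0.909 to 1.07]). Exocyst and TRAPP tethers were higher by the fold in 2 of 15 cases, with Exoc4 of the exocyst at 0.479 and 0.903 (1.89 [1.67 to 2.14]). Of 18 other ESCRT genes 4 were higher by the fold, such as Chmp1a (0.682 and 1.17; 1.72 [1.55 to 1.91]). Clathrin subunits split, with Cltc, the heavy chain, at 3.51 and 3.19 (0.910 [0.863 to 0.960]), Cltb, a light chain, at 4.87 and 4.42 (0.909 [0.868 to 0.951]) and Clta, the other light chain, at 3.45 and 4.71 (1.37 [1.30 to 1.43]).

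In alpha cells, Vamp2 was the listed member, and the knockout mice lay on either side of the control. It had 1.30 UMIs per cell in the control (142 cells), 1.32 in the first knockout column (304 cells) and 0.960 in the second (177 cells), a mean of 1.14 ± 0.251 (SD, n = 2). The first column equalled the control within counting error (1.02 [0.851 to 1.22]) and the second was lower (0.741 [0.598 to 0.918]). The knockout columns also differed from each other, the second being 0.730 [0.606 to 0.876] of the first. Such a split was seen for 12.4% of the 186 listed genes, and both columns higher by the fold of 1.5 for 5.38%. With limma, adjusted over all 186 genes, the log2 difference was -0.19 ± 0.30 (SE) at an adjusted p of 0.647. By the fold of 1.5, where 10.8% of listed alpha-cell genes were higher and 30.1% lower, Vamp2 was neither. The difference of the means was smaller than the SD between the knockout columns. Beta-cell transcripts were lower in the same alpha cells, with Ins2 at 214 against 160 and 151 and Iapp at 126 against 54.7 and 69.6. Ppy, the pancreatic polypeptide gene, was the highest of the listed hormones there, at 427 against 341 and 323. Ins1 was at 93.6 against 36.0 and 83.1, and Sst, the somatostatin gene, at 36.8 against 12.1 and 42.01, so both were higher in the second knockout column than in the first, where Vamp2 was lower in the second. The part of these transcripts in the Vamp2 values was not tested.

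In delta cells, Snx10 was the listed member and was higher in both knockout mice. The control had 0.475 UMIs per cell (101 cells), the first knockout column 1.02 (138 cells) and the second 1.06 (78 cells), a mean of 1.04 ± 0.0300 (SD, n = 2). The knockout columns were 2.15 [1.54 to 3.05] and 2.24 [1.55 to 3.26] times the control, and the second was 1.04 [0.784 to 1.38] of the first. Of the 231 listed delta-cell genes, 41.1% were higher by the fold of 1.5 in the mean, 26.8% in both columns, 16.0% were lower in the mean, and 10.4% had columns on either side of the control. With limma, adjusted over all 231 genes, the log2 difference was 0.99 ± 0.31 (SE) at an adjusted p of 0.0354. That fit has 1 residual degree of freedom, assumes that the lone control varies like the knockouts, and ran on genes chosen on the same cells, so its p is too small. Cplx2, from the list of docking genes, was the other vesicle gene listed in delta cells, at 0.802 against 1.53 and 1.68. Both genes were also higher in beta cells, as given above.

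Levels of Gcg and Iapp also differed in the same delta cells. Gcg, the glucagon gene, had 10.0 UMIs per control delta cell and 159 and 63.5 in the knockout columns. Iapp, at 1825 in control cells and 797 and 698 in the knockout columns, was lower. Snx10 in delta cells was at 17.8% of its beta-cell level in the control and 32.2% in the knockout mean, while for Iapp these shares were 102% and 80.0%. The part of these transcripts in the Snx10 values was not tested. Sst, which defines delta cells, was not analysed in them, and 1 of 6 delta-cell markers, Rbp4, was listed there, at 137 UMIs per control cell against 84.2 and 69.1. No alpha-cell marker was among the listed genes of alpha cells, so neither label was checked by its defining hormone.

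**Figure D5:**
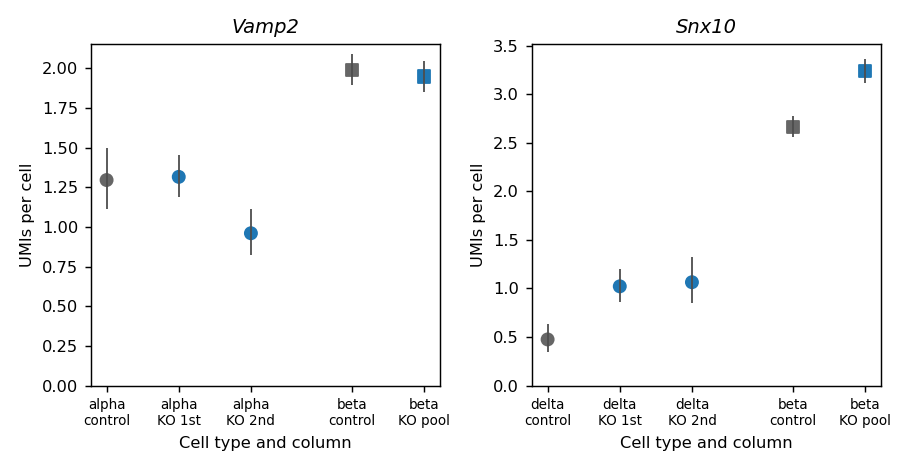
UMIs per cell of Vamp2 (left; alpha and beta cells) and Snx10 (right; delta and beta cells), with exact 95% Poisson intervals for counting error. Circles are single mice in alpha or delta cells and squares are beta-cell columns, of which the knockout pools both mice. Snx10 is 0.475 in the control delta cells against 1.02 and 1.06, and Vamp2 is 1.30 in the control alpha cells against 1.32 and 0.960.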

How the data were processed

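Single islet cells were profiled with the 10X Genomics droplet system, and the submitters' processing notes name Cell Ranger 3.0.0 with the build mm10. The authors deposited a table per cell type with a signal per column, which the values show to be mean UMIs per cell, unscaled: each value times the cell number was whole within 0.001 for 100% of genes (99.99% in control beta cells). The deposited tables also hold p-values and adjusted p-values from a test over cells that is not given in the sources used here; they were used only as the authors' values. Cell filters, doublets, free RNA and the naming of cell types are likewise not given. The header of the alpha-cell table is shifted by 1 column, and knockout columns carry a number that was not matched to a sample, so they are called first and second.

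Ratios were computed without a pseudocount, a group at 0 being set to 3 UMIs over its cells. Intervals are Clopper-Pearson at 95%, checked on simulated data, and cover counting error only. Genes were matched to GENCODE M21 (mm10) by identifier, for all 124 members. limma 3.58.1 ran on log2(UMIs per cell + 0.1) over all listed genes of alpha and delta cells; it was added after seeing the data and tested on simulated data. Named were members listed in alpha or delta cells, members lower by a fold of 1.5, the 3 highest and 3 lowest ratios per prefix among genes at the table's median level, and a list of exocytosis and sorting genes; members named beyond these (Rab1b, Rab5b, Rab11b, Rab3gap1, Rab15, Stx11, Stx17, Stxbp5, Stxbp6, Syt17, Sytl2, Vps16, Vps26b, Snap91 and the antisense transcripts) complete a complex or class and were chosen after their values were seen. The members, lists and classes were chosen with earlier results of these data known. Alternatives were a fold of 2, a filter, a pseudocount, 3 scalings, families without binding proteins and leaving out either knockout mouse. Of the members this rule names, 2 are not reported here.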

Additional observations from a re-analysis of the deposited data

How the results depend on the processing

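Counts and medians of beta-cell members moved with the scaling. The 49 higher members became 23 at a fold of 2, 29 with genes of at least 0.1 UMIs per cell, 11 with a pseudocount of 0.1, 98 after scaling to the listed UMIs, 30 after scaling without hormones and 20 after centring on the median of all listed genes. The 1 lower member, Vps8, became 0 at a fold of 2 and after scaling to the listed UMIs, 2 without hormones and 3 after centring. Their median log2 ratio of 0.42 became 0.34 with the filter, 0.31 with the pseudocount, 0.77 scaled to the listed UMIs, 0.17 without hormones, -0.12 after centring and 0.40 for named families only. For the pathway list, the 25 higher genes became 7 at a fold of 2, 9 with the pseudocount, 76 scaled to the listed UMIs, 12 without hormones and 4 after centring; the 2 lower became 1 at a fold of 2, with the filter and scaled to the listed UMIs, and 7 after centring. Its median of 0.37 became 0.31 with the pseudocount, 0.72, 0.12 and -0.17 under these scalings. Snx10 in delta cells, at a log2 ratio of 1.13, was at 0.99 with the pseudocount and in limma, 1.51 and 1.02 under the total scalings and 0.72 after centring, and from 1.10 to 1.16 without either knockout mouse. Vamp2 in alpha cells ranged from -0.43 to 0.02 without either mouse. Planned edgeR fits on alpha and delta cells were not run, because a check on the deposited means did not accept them as recovered counts. No paired analysis was possible because the control group has 1 mouse.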

Other observations

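Some members listed by the authors had almost equal UMIs per cell in both groups. For the 21 members whose counting interval covered 1, the ratio ran from 0.956 to 1.25, while adjusted p in the authors' deposited table ran from 3.99e-11 to 0.00623. Rab2a, with a ratio of 1.01, has the smallest of these. After scaling to the listed UMIs, the ratios of the 21 ran from 1.22 to 1.59. Of the 21, 10 had at least 1 UMI per control cell.

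Under that scaling Vps8 and Rab3gap2 remained below 1, at 0.694 and 0.905, and under scaling without hormones at 0.459 and 0.598. Vamp2 was at 1.24 under the first and 0.823 under the second, so its direction depends on the scaling. Rab5if and Vps35l, which the table lists under older names, were at ratios of 1.29 and 1.12.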
